A study of Mus musculus with 238 samples.

Results

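The comparison of liver with brain in freely fed mice rests on 58 of the 238 libraries of the series: the 4 livers and the 54 brain-region libraries of the 4 animals fed ad libitum (AL). All 4 were C57BL/6JN females aged 19 months, numbered 63, 66, 68 and 69 in the labels, and each gave a liver and 12 to 14 brain regions. The regions were caudate putamen, cerebellum, corpus callosum, entorhinal cortex, anterior and posterior hippocampus, hypothalamus, medulla, motor cortex, olfactory bulb, pons, SVZ, thalamus and visual cortex; choroid plexus was left out, and mouse 68 had no corpus callosum or entorhinal cortex library. Each animal gave 1 value per gene, its liver level minus the mean level of its brain regions, and the difference was tested over the 4 animals. The study sequenced liver beside brain to check a dietary restriction, and 5 restricted females of the same strain and age (label DR for liver, aDR for brain) appear here only in a closing comparison.

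Liver is built mainly of hepatocytes, which make most proteins of the blood plasma, store and release glucose, turn ammonia into urea, make bile acids and clear foreign compounds. Brain tissue is a mixture of neurons, astrocytes, myelinating oligodendrocytes, microglia and vessels, with little storage fuel of its own and an almost constant use of glucose. The 2 organs run many of the same chemical steps with different members of a gene family, and several genes used as markers of brain glia are also hepatocyte genes.

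Levels are CPM, counts scaled to a common library total after TMM scaling, a correction for the few genes that fill much of a library. CPM carry no correction for gene length and were compared between tissues and not between genes. Values of single mice are always given in the order 63, 66, 68 and 69. A difference is liver minus brain on the log2 CPM scale, given as the mean over the 4 mice ± limma's moderated SE. The variance behind this SE is drawn toward that of genes of similar level. It is therefore not the plain spread of the 4 mice and can be larger or smaller. Each region's log2 value counts equally, and 1 stands for a 2-fold difference. A gene was called when its Benjamini-Hochberg adjusted p over 15857 genes was under 0.05 in limma, and called beyond 2-fold when limma's test against a log2 difference of 1 (treat) passed the same threshold. All adjusted p-values below are from this 2-fold test unless stated.

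Liver and brain labels matched the defining genes of each organ in every library. Albumin (Alb) took 4.49 to 5.91% of the counts of each liver. The 10 most abundant genes together took 17.6 to 21.2% of a liver library and 3.77 to 7.19% of a brain library. Library totals ran from 6.01 to 12.1 M counts in liver and from 2.22 to 21.9 M in brain (M, mega). A liver library held 11924 to 12112 genes at 1 CPM or more, and a brain library 13381 to 14246.

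Of 15857 genes, 13029 (82.2%) were called, 5541 (34.9%) higher in liver and 7488 (47.2%) higher in brain. Beyond 2-fold, 3167 genes (20.0%) were higher in liver and 4600 (29.0%) higher in brain, together 49.0%. Since bulk tissue was measured, fewer cells of a type and less RNA per cell cannot be told apart in any of these differences. With TMM scaling the balance differed with the level of the gene. Among 278 genes at 1000 CPM or more in the higher tissue, 212 were beyond 2-fold in liver and 40 in brain. TMM multiplied library sizes by 0.512 to 0.579 in liver and 0.948 to 1.14 in brain, which raises liver CPM against this cut. The same count with plain library totals was not made. The differences were alike in the 4 animals, with correlations across genes of 0.977 to 0.989 between any 2 of them and a median SD of 0.32 per gene. In 7841 genes (49.4%) the 4 livers did not overlap with any of the 54 brain libraries.

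The count of calls depended on the scaling. With plain library totals in place of TMM, the median difference over all genes moved from -0.30 to -1.12, a shift of -0.82, and the calls beyond 2-fold were 2035 in liver and 7080 in brain. Liver calls then made up 22.3% of the calls beyond 2-fold, against 40.8% with TMM. A difference within about 1 of 0 is therefore a statement about the scaling as much as about the gene, and the genes named below that changed sign with plain library totals are listed with that value in the closing section.

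**Figure D1:**
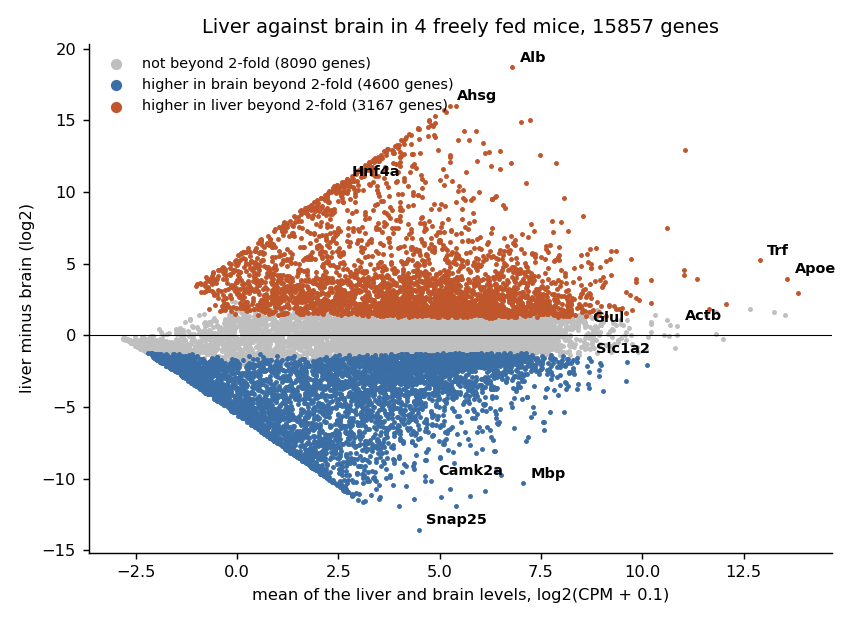
Liver minus brain difference (log2, vertical axis) against the mean of the liver and brain levels (log2 of CPM + 0.1, horizontal axis) for 15857 genes. Each point is a gene, coloured by its call in the 2-fold test with TMM scaling: 3167 were higher in liver, 4600 higher in brain, and the most abundant genes lie mostly on the liver side. With plain library totals the points would shift down by 0.82 at the median. The slanting edges are genes with almost no counts in the lower tissue, whose difference is set by the prior count.

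Albumin, the main protein of blood plasma, had the largest fitted difference of all genes. It stood at 85221, 98141, 105040 and 105010 CPM in the 4 livers and at 0 to 0.266 CPM (median 0) in the 54 brain libraries, a difference of 18.70 ± 0.10 (adjusted p = 4.05e-08). The livers and the brain libraries were nowhere near overlap. Ahsg, which encodes the plasma carrier fetuin-A, had 17701, 9044, 14008 and 17021 CPM in liver and a single count in all brain libraries together, a ratio of 7694900-fold (counting interval 1381100 to 303930000). Gc, the vitamin D-binding protein of plasma, had 19035, 10189, 13141 and 17339 CPM in liver and at most 0.162 CPM in any brain library, a difference of 15.96 ± 0.16. Fabp1, the fatty acid carrier of the hepatocyte cytosol, had 6942, 10698, 8286 and 8766 CPM in liver and no count in any of the 54 brain libraries. Against a floor of 3 counts over the brain libraries, Fabp1 was at least 1540200-fold higher in liver. Fgb and Fga, the beta and alpha chains of fibrinogen, differed by 15.68 and 14.64, and Kng1, the precursor of bradykinin, by 14.94. The protease inhibitors Serpina1b, Serpina1c and Serpina1d differed by 15.55, 14.98 and 14.78, but these are near-identical copies between which reads may be split. Apoa1 and Apoa2, the main proteins of high-density lipoprotein, completed the group, with differences of 15.01 ± 0.14 and 14.86 ± 0.18. Where a tissue held only 0 to 3 counts of a gene, the fitted difference depends on the prior count and is no limit on the true one.

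At the other end stood genes of nerve terminals, axons and myelin. Snap25, a protein of the machinery that fuses synaptic vesicles, had 0.211, 0, 0 and 0 CPM in the 4 livers, which was 1 count in all, and 1232 to 5999 CPM (median 2937) in brain, a ratio of 61281-fold (counting interval 10999 to 2420500). Cplx1 (complexin, a clamp on vesicle fusion), Nefl (the light chain of neurofilament), Pcsk1n (an inhibitor of prohormone processing) and Stmn3 (a microtubule regulator) had no count in any liver. The brain level was at least 4660.4-fold higher for Cplx1, 4902-fold for Nefl, 3901-fold for Pcsk1n and 3217-fold for Stmn3. Mobp, a myelin protein, Chn1, a signalling protein of neurons, and Gria2, a subunit of the AMPA glutamate receptor, had 1 liver count each, against brain means of 1488 ± 142, 932 ± 41.9 and 769.8 ± 43.5 CPM (SD, n = 4 mice). Ndrg4, Tubb4a and the long noncoding RNA Meg3 differed by -11.93 ± 0.40, -11.46 ± 0.30 and -11.24 ± 0.13. In none of the genes of this paragraph did a liver reach the lowest brain library.

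The promoters of genes at both ends are shown because these genes differ most between the organs; they are the 250 bases before the RefSeq transcription start (GRCm38.p6), 5′ to 3′ on the gene's strand, with motif matches in capitals. Motifs were searched on both strands. C/EBP was searched as TTGCNNAA, a factor family of liver and other tissues. HNF1 was searched as GTTAATNAT and HNF4 as CAAAGNCCA, both factors of hepatocytes. FOXA, another hepatocyte family, was searched as TGTTTAC. The TATA box, where the transcription machinery assembles, was searched as TATAAA. For Alb (chr5:90460620-90460869, plus strand) the capitals mark a C/EBP and an HNF1 match, for Gc (chr5:89457899-89458148, minus strand) an HNF1 match, and for Fabp1 (chr6:71199629-71199878, plus strand) a C/EBP match followed by a TATA box. The promoters of Cplx1 (chr5:108550028-108550277, minus strand) and Gria2 (chr3:80802836-80803085, minus strand) held no match to these letters.
Alb: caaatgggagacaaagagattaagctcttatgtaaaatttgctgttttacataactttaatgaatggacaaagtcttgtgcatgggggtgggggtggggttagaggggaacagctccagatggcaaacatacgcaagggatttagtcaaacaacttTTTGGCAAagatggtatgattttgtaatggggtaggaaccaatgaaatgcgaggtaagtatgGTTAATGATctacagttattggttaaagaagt
Gc: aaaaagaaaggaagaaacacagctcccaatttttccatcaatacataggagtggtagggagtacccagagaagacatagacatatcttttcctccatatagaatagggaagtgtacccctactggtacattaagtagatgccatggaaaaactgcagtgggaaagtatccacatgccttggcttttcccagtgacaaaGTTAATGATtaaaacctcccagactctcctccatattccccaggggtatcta
Fabp1: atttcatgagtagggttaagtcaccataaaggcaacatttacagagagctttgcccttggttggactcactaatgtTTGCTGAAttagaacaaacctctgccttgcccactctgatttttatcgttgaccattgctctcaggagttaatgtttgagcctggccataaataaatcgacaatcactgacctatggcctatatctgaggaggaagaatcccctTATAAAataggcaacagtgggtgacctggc
Cplx1: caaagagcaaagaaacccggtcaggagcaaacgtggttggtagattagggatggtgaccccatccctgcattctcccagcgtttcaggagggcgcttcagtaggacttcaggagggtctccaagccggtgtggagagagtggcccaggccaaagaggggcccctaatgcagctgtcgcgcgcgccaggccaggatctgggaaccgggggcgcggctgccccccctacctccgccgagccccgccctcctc
Gria2: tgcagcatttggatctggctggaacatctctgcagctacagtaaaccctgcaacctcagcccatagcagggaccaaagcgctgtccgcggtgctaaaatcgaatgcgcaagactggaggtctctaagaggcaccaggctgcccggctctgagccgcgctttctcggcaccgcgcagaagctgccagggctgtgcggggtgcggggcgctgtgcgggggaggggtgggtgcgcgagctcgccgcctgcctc
In Alb the matches lay 94 to 87 and 32 to 24 bases before the start, in Gc 52 to 44 bases before it, and in Fabp1 174 to 167 and 30 to 25 bases before it. Of 27025 promoters of this length, 9.55% held the C/EBP letters, 0.781% the HNF1 letters, 1.67% the HNF4 letters, 3.09% the FOXA letters and 13% TATAAA. Of the 12 genes picked at each end, 11 liver genes and 9 brain genes had a promoter in the table. A C/EBP match was found in 7 of the 11 and 1 of the 9, and an HNF1 match in 3 of 11 and 0 of 9. The 7 include Serpina1b and Serpina1d, near-identical copies that are not separate observations, while their copy Serpina1c held no match. The HNF4 letters were found in 0 of 11 liver and 2 of 9 brain promoters, the FOXA letters in 1 and 0, and TATAAA in 2 and 1. The liver promoters held 0 to 6 CpG dinucleotides and the brain promoters 3 to 31. These are descriptions of letters in a window, for genes picked at the extremes.

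**Figure D2:**
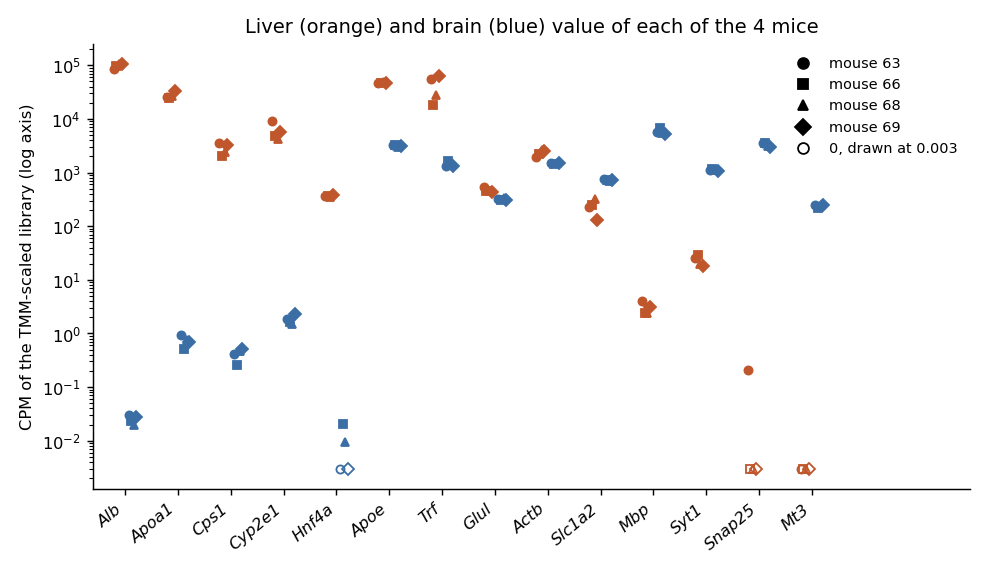
Level of 14 genes in each of the 4 freely fed mice (CPM of the TMM-scaled library, log axis); orange symbols are the liver and blue symbols the mean over the brain regions of the same mouse, and symbol shapes mark the mice. Open symbols are values of 0, drawn at 0.003 CPM. Alb lies between 85221 and 105040 CPM in the livers and Mt3 at 0, while Glul and Actb differ little and take the opposite sign with plain library totals.

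The proteins that liver secretes into plasma were higher in liver almost without exception. Here and below, the members of 36 gene lists are counted, 726 different genes of which 3 had no row, 4 did not pass the filter on low counts and 719 were tested; of all genes tested, 20.0% were beyond 2-fold in liver and 29.0% in brain. Of 41 secreted plasma proteins, 40 were beyond 2-fold in liver and 0 in brain, with a median difference of 12.74 against -0.30 over all genes tested. Clusterin (Clu), a chaperone of plasma and cerebrospinal fluid, was the member outside, with 2746, 1430.2, 2240.0 and 2530.0 CPM in liver, 507 to 1945 CPM (median 1027) in brain and a difference of 1.02 ± 0.22. Its brain libraries overlapped with the livers. Apolipoprotein E (Apoe), the lipid carrier that hepatocytes and astrocytes both make, had 47107, 47116, 49070 and 46542 CPM in liver and 1780.4 to 4577 CPM (median 3264) in brain, a difference of 3.94 ± 0.44 (adjusted p = 0.000912). No brain library came near the lowest liver. Transferrin (Trf), the iron carrier of plasma that oligodendrocytes also make, varied widely between livers at 56656, 17960, 27817 and 62040 CPM, against 89.5 to 3487 CPM (median 1132) in brain. Its difference of 5.25 ± 0.48 (adjusted p = 0.000249) was larger than this spread, and the lowest liver stood far above the highest brain library.

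Of 25 coagulation genes, 23 were beyond 2-fold in liver and 2 in brain. The exceptions act at vessel walls and in tissue. F3, the tissue factor that starts clotting, had 11.4, 8.96, 7.98 and 11.4 CPM in liver and 57.7 to 99.2 CPM (median 75.4) in brain, a difference of -2.90 ± 0.13 (adjusted p = 2.3e-05). Plat, the tissue plasminogen activator that dissolves clots and is also released by neurons, had 1.89, 1.18, 2.07 and 0.966 CPM in liver and 31.1 to 82.7 CPM (median 48.7) in brain, a difference of -4.91 ± 0.23 (adjusted p = 1.11e-05). Neither gene overlapped between the organs. F5, the clotting cofactor V, was on the liver side at 683, 727, 648 and 611 CPM, a difference of 9.27 ± 0.19.

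Complement genes were mostly liver genes. Of 22 tested members, 19 were beyond 2-fold in liver and 0 in brain; the other 3 were the subunits of C1q, which macrophages and microglia make. C3, the central component, had 12754, 6934, 9032 and 10090 CPM in liver and 0 to 35 CPM (median 3.58) in brain, a difference of 12.01 ± 0.24. C4b had 2174, 1328, 1729.5 and 2262 CPM in liver and 8.09 to 344 CPM (median 76.1) in brain, a difference of 4.71 ± 0.17. Both were highest in SVZ among the brain regions, and no brain library reached a liver.

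Hormones of liver and the growth hormone axis followed, with 19 of 21 members beyond 2-fold in liver and 1 in brain. Igf1, the growth factor that liver releases under growth hormone, had 1660.0, 1808, 1733 and 1518 CPM in liver and 2.1 to 65.3 CPM (median 11.7) in brain, a difference of 7.26 ± 0.10. Igf2, its relative, lay on the other side, with 0.211, 0.943, 1.48 and 0.322 CPM in liver and 2.22 to 87.8 CPM (median 11) in brain, a difference of -3.87 ± 0.36 (adjusted p = 0.000373). Every brain library held more Igf2 than the highest liver, and its level was highest in corpus callosum. Hamp, the hormone hepcidin that limits iron uptake, had 2228, 5894, 4294 and 2494 CPM in liver and 1 count in all brain libraries together. Igfbp4, a binding protein of these growth factors, differed by 5.67 ± 0.13.

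Transcription factors that set hepatocyte identity were beyond 2-fold in liver for 21 of 22 members, with a median difference of 6.22. Hnf4a, a nuclear receptor needed for the hepatocyte program, had 370.1, 360.3, 352 and 374 CPM in the 4 livers and at most 0.239 CPM in a brain library, a difference of 10.72 ± 0.13. Cebpa, which drives metabolic genes, had 623, 404, 441 and 566 CPM in liver and 2.15 to 13.9 CPM (median 7.44) in brain, a difference of 5.99 ± 0.17, and was thus measurable in every brain library. Ppara, the receptor that switches on fatty acid oxidation in fasting, differed by 6.10 ± 0.13. Nr1i3, a sensor of foreign compounds, had 749, 1004, 613 and 354 CPM in liver, a wide spread between animals, and 26 to 52.9 CPM (median 37.7) in brain, a difference of 4.10 ± 0.22. Esrra, a regulator of mitochondrial genes found in many tissues, was the member not beyond 2-fold, with 33.1, 27.8, 25.4 and 32.8 CPM in liver, 16 to 71.2 CPM (median 42.7) in brain and a difference of -0.42 ± 0.11 (adjusted p = 0.0129 for a difference of any size). That call was lost with a minimum count of 50 and without mouse 66 or 68.

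Genes of the urea cycle and of nitrogen disposal were mostly higher in liver. Of 15 members, 12 were beyond 2-fold in liver and 2 in brain. Cps1, the first and rate-limiting enzyme, had 3606, 2028, 2413 and 3207 CPM in liver and 0 to 2.34 CPM (median 0.315) in brain, a difference of 12.42 ± 0.13. Ass1, which joins citrulline to aspartate, was measured in every brain library (20.7 to 174 CPM (median 76.7)) and in liver at 6275, 3049, 4193 and 5766 CPM, a difference of 5.89 ± 0.22. Arg1, the arginase that releases urea, had 3155, 2569.8, 2982 and 3286 CPM in liver, and its mitochondrial relative Arg2 had 2.53, 1.41, 3.25 and 2.42 CPM, against brain means of 0.392 ± 0.0529 and 11 ± 0.562 CPM (SD, n = 4 mice). Their differences were 12.60 ± 0.12 and -1.93 ± 0.24 (adjusted p = 0.00952 for Arg2), so the arginases lay on opposite sides.

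Glutamine handling, which the organs share, showed both patterns. Gls2, the glutaminase of liver, had 744, 465, 456 and 660.4 CPM in liver and 8.54 to 63.3 CPM (median 28.3) in brain, a difference of 4.43 ± 0.18. Glutamine synthetase (Glul), which marks both astrocytes and the hepatocytes around the central vein, had 528, 452, 456 and 436 CPM in liver and 189.9 to 426 CPM (median 328) in brain. Every liver was above the highest brain library, yet the difference of 0.56 ± 0.11 was not beyond 2-fold and was -0.38 with plain library totals. The transporters also parted, with Slc38a3 higher in liver by 5.56 ± 0.12 and Slc38a1 higher in brain, at -5.06 ± 0.15.

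Amino acid breakdown was higher in liver in 30 of 31 members, with a median difference of 9.15. Mat1a, the methionine adenosyltransferase of liver, had 5417, 3241, 4045 and 4719 CPM there and a brain mean of 0.0921 ± 0.0557 CPM, a difference of 13.99 ± 0.14. Bhmt and Gnmt, which pass methyl groups on, differed by 13.60 ± 0.29 and 11.83 ± 0.25, and Hpd of tyrosine breakdown had 3 counts in all brain libraries against 3110.3 ± 232 CPM in liver (SD, n = 4 mice). The exception was Bcat1, the cytosolic enzyme of branched-chain amino acids, which had no count in any liver and 30.8 to 276 CPM (median 102) in brain, at least 705-fold higher.

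Bile acid synthesis and transport had 18 of 19 members beyond 2-fold in liver. Cyp7a1, the rate-limiting enzyme of bile acid synthesis, had 515, 628, 687 and 554 CPM in liver and 0 to 0.791 CPM (median 0) in brain, a difference of 11.10 ± 0.18. Cyp46a1, which hydroxylates cholesterol in neurons so that it can leave the brain, went the other way, with 14.9, 20.0, 5.91 and 17.5 CPM in liver and 45.5 to 413 CPM (median 216) in brain, a difference of -3.71 ± 0.26 (adjusted p = 0.000115). The uptake carriers Slc10a1 and Slco1b2 and the acyl-CoA ligase Slc27a5 differed by 11.20 ± 0.28, 12.66 ± 0.17 and 11.81 ± 0.18. All 35 genes of drug and steroid metabolism were beyond 2-fold in liver, with differences from 1.50 to 14.39. Cyp2e1, which oxidises ethanol and small solvents, had 9271, 4909, 4308 and 5729.7 CPM in liver and 0 to 9.94 CPM (median 1.14) in brain, a difference of 12.01 ± 0.21. Adh1, the alcohol dehydrogenase of liver, and Ces1c, a carboxylesterase secreted into plasma, differed by 12.77 ± 0.15 and 14.39 ± 0.10. Gstm1, a glutathione transferase, kept 216 to 424 CPM (median 310.0) in brain, and its difference was 3.84 ± 0.17.

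Within liver, hepatocytes near the portal vein and those near the central vein carry different enzymes. All 15 periportal genes and 10 of 14 pericentral genes were beyond 2-fold in liver, with median differences of 11.01 and 3.80. Why the pericentral median was smaller was not tested. Of the pericentral genes, Glul (above), Axin2 and Lgr5 were not beyond 2-fold. Slc1a2, the glutamate transporter of astrocytes, was beyond 2-fold in brain. Slc1a2 had 224, 246, 324 and 131 CPM in liver and 278 to 1240.1 CPM (median 740.4) in brain, a difference of -1.62 ± 0.23 (adjusted p = 0.0346). Its liver and brain values overlapped, cerebellum having the lowest region mean at 313 CPM, and its call beyond 2-fold was lost with DESeq2 size factors, with no filter on low counts, with a minimum count of 50 and without mouse 63, 66 or 69.

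**Figure D3:**
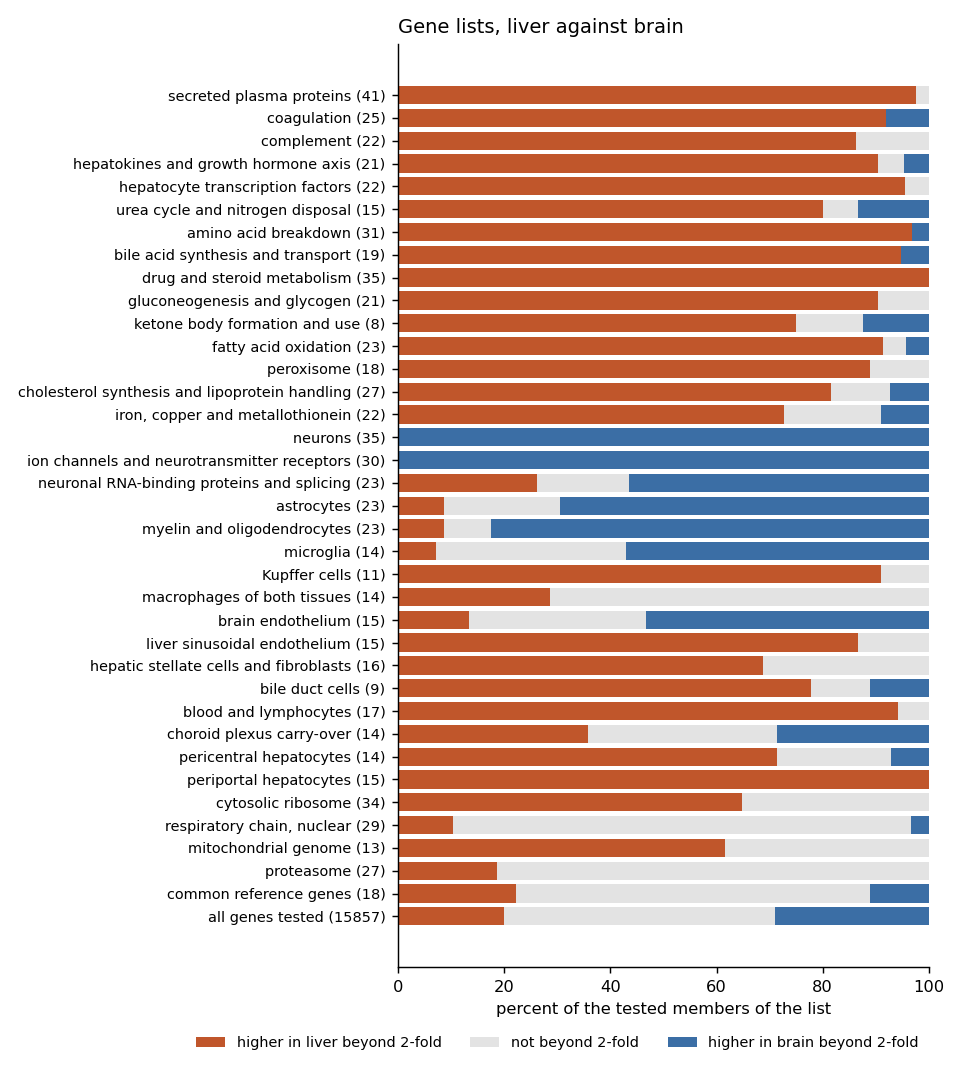
Share of the tested members of each gene list (number tested in brackets) that were higher in liver (orange), higher in brain (blue) or not beyond 2-fold (grey) in limma's 2-fold test with TMM scaling; the bottom bar gives all genes tested (20.0% liver, 29.0% brain). Hepatocyte lists are almost wholly orange and neuronal lists wholly blue. With plain library totals the liver share of the cytosolic ribosome falls from 22 of 34 to 1 of 34 and that of the mitochondrial genome from 8 of 13 to 0 of 13.

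Of 21 genes of glucose release and glycogen, 19 were beyond 2-fold in liver and 0 in brain, or 17 and 1 with plain library totals. Pck1, the committed enzyme of gluconeogenesis, had 1804, 2169, 2646 and 2137 CPM in liver and 0 to 0.262 CPM (median 0) in brain, a difference of 13.24 ± 0.13. Its mitochondrial relative Pck2 had 11.2, 6.84, 12.1 and 16.9 CPM in liver and 14.4 to 51.3 CPM (median 31.5) in brain, and its difference of -1.46 ± 0.23 was not beyond 2-fold (adjusted p = 0.0904). Fbp1, the second committed enzyme, and Khk, which phosphorylates fructose, differed by 12.62 ± 0.19 and 6.21 ± 0.17.

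In glycolysis and glucose entry, most steps had 1 gene on each side. The brain hexokinase Hk1 had 4.63, 8.02, 7.39 and 6.6 CPM in liver and a brain mean of 186 ± 4.52 CPM (SD, n = 4 mice), a difference of -4.75 ± 0.16, and aldolase C (Aldoc) was at -6.07 ± 0.24. The pyruvate kinases Pklr and Pkm differed by 10.16 ± 0.27 and -5.34 ± 0.18, and so lay on opposite sides. The same held for glycogen phosphorylase, with Pygl at 6.49 ± 0.23 and Pygb at -4.63 ± 0.28, and for glycogen synthase, with Gys2 at 9.85 ± 0.17 and Gys1 at -2.14 ± 0.13. The glucose transporter of hepatocytes, Slc2a2, had 794, 623, 554 and 826 CPM in liver and 0 to 0.8 CPM (median 0.244) in brain, and the neuronal Slc2a3 had 1.05, 0.707, 2.95 and 0.483 CPM in liver and 75.2 to 211 CPM (median 114) in brain. Neither transporter overlapped between the organs, and their differences were 10.73 ± 0.18 and -6.50 ± 0.36. Lactate dehydrogenase B (Ldhb) was at -7.11 ± 0.23, while Ldha was higher in liver by only 1.82 ± 0.20 (adjusted p = 0.00758). Phosphofructokinase had its liver form Pfkl lower in liver than in brain, at -1.65 ± 0.28 (adjusted p = 0.0586, not beyond 2-fold), and its platelet form Pfkp at -4.24 ± 0.15. For enolase, Eno2, the neuronal form, was at -10.54 ± 0.32, and Eno1, the form of most tissues, at -0.64 ± 0.25, a call for a difference of any size (adjusted p = 0.0489) that was lost without mouse 63, 66 or 68.

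Across 30 such steps, each a pair of genes with a known liver form and brain form, both members were beyond 2-fold in their own organ in 17 pairs, 1 member in 9 and neither in 4. Of the liver forms 21 were beyond 2-fold in liver, and of the brain forms 22 in brain, shares of 30 that stand beside 20.0% and 29.0% of all genes. The pairs were put together from textbook knowledge of tissue forms, so the direction of most was known. Some went against it or showed 1 gene in both organs. Adh5, the alcohol dehydrogenase of all tissues, was higher in liver by 3.19 ± 0.14. Slc16a7, a monocarboxylate transporter of neurons, had 276, 162, 150.1 and 159.6 CPM in liver and 8.35 to 40.1 CPM (median 21.3) in brain, with no overlap and a difference of 3.13 ± 0.18; its relative Slc16a1 differed by 0.60 ± 0.17 and by -0.34 with plain library totals. Of the pyruvate dehydrogenase kinases, Pdk1 was higher in liver by 2.44 ± 0.20 and Pdk2 by 0.78 ± 0.10, the latter -0.16 with plain library totals. Got1 and Got2, the cytosolic and mitochondrial aspartate aminotransferases, were at -0.36 ± 0.18 and 1.04 ± 0.21. Got1 was not called for a difference of any size (adjusted p = 0.119 in limma). The cytochrome oxidase subunits Cox7a1 and Cox7a2 were at 1.15 ± 0.22 and 0.93 ± 0.13, Cox7a2 at -0.0091 with plain library totals. Neither these subunits nor Got2 were beyond 2-fold. Mat2a, the methionine adenosyltransferase outside liver, kept 233 ± 13.8 CPM in liver (SD, n = 4 mice) and differed by -0.73 ± 0.09. The connexins Gjb1 and Gja1, which form gap junctions of hepatocytes and astrocytes, differed by 5.20 ± 0.25 and -4.57 ± 0.14. Fabp7, the fatty acid carrier of glia, was at -1.40 ± 0.25 and not beyond 2-fold. Tph2, which makes serotonin in neurons, had no count in liver, and its brain level was at least 191-fold higher, with means of 124 CPM in medulla and 272 in pons and at most 4.97 in any other region.

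**Figure D4:**
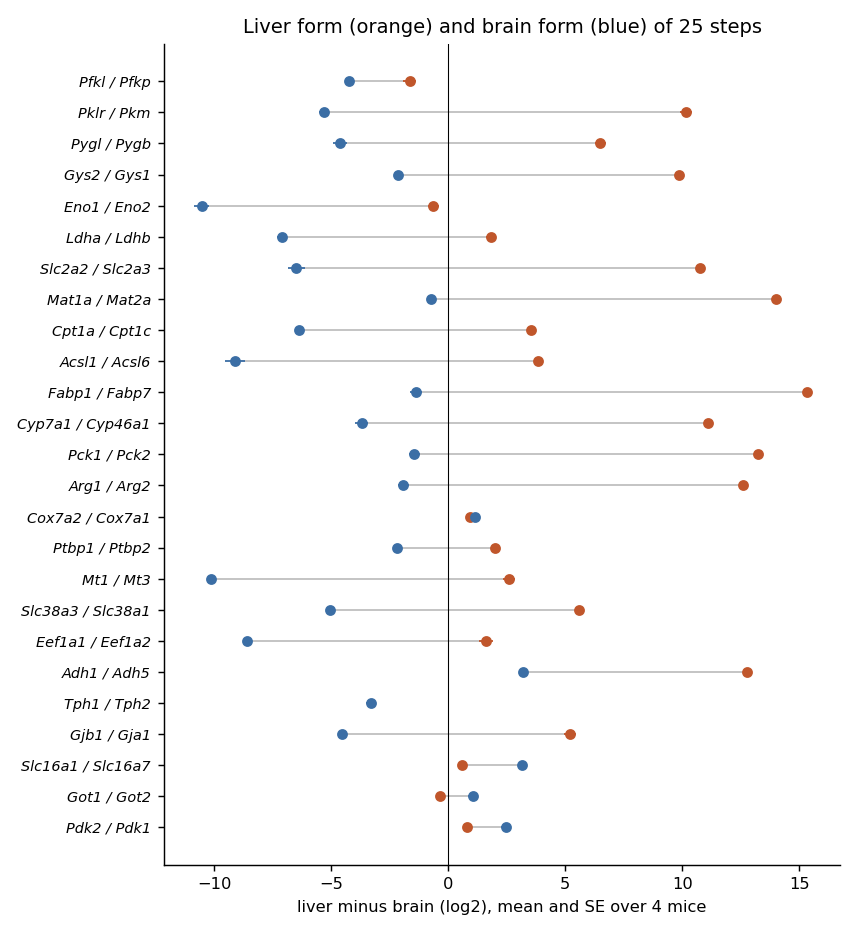
Liver minus brain difference (log2) of the liver form (orange) and the brain form (blue) of 25 of the 30 steps with TMM scaling. Points are means over 4 mice and bars are limma's moderated SE. The line joins the members of a pair, and Tph1 was not tested and has no point. In 13 of the pairs drawn both members were beyond 2-fold in their own organ, while Adh5, Slc16a7 and Pdk1, drawn in blue, lie on the liver side. Slc16a1, Pdk2 and Cox7a2 lie just right of 0 and left of it with plain library totals.

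Of 23 genes of fatty acid oxidation, 21 were beyond 2-fold in liver and 1 in brain, and the median difference was 3.72. Cpt1a, the gate of long-chain fatty acids into mitochondria, had 403, 285, 359 and 288 CPM in liver and 17.6 to 61.4 CPM (median 27.1) in brain, a difference of 3.53 ± 0.14. Its neuronal relative Cpt1c had 1.05, 0.943, 0.886 and 0.966 CPM in liver and 55.3 to 165 CPM (median 105) in brain, a difference of -6.40 ± 0.13. The acyl-CoA synthetases Acsl1 and Acsl6 differed by 3.83 ± 0.16 and -9.13 ± 0.43. Oxct1, which ketone-using tissues need and hepatocytes lack, had 10.1, 10.4, 17.1 and 14.2 CPM in liver and 209.7 to 392 CPM (median 298) in brain, a difference of -4.52 ± 0.16. Its liver and brain libraries did not overlap.

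Of 18 peroxisome genes, 16 were beyond 2-fold in liver, and 13 with plain library totals. Cat, which breaks down hydrogen peroxide, differed by 5.89 ± 0.15 and Uox, which oxidises urate, by 12.73 ± 0.23. Dao, which breaks down D-amino acids such as D-serine, had no count in any liver and 0 to 16.9 CPM (median 0) in brain. It was highest in cerebellum and at least 9.01-fold higher over the brain libraries, although its fitted difference was -1.08 and -0.05 with the median over regions in place of the mean.

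Cholesterol synthesis runs in both organs, since brain makes its own cholesterol. Of 27 genes, 22 were beyond 2-fold in liver and 2 in brain, and the median difference of 2.37 was smaller than in most lists above. With plain library totals 14 were beyond 2-fold in liver and 3 in brain. Fdps, which makes farnesyl diphosphate, and Hmgcs1, the first committed enzyme, differed by 3.72 ± 0.19 and 1.84 ± 0.19 (adjusted p = 0.00604 for Hmgcs1). Srebf2, the factor that drives these enzymes, had 110.1, 72.9, 93.9 and 93.1 CPM in liver and 74.7 to 188 CPM (median 139) in brain, a difference of -0.56 ± 0.12 with overlap. Abcg1, a cholesterol exporter, and Soat1, which esterifies cholesterol outside hepatocytes, were beyond 2-fold in brain at -1.87 ± 0.13 and -1.65 ± 0.22 (adjusted p = 0.000906 and 0.0273).

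In iron, copper and metallothionein genes, 16 of 22 were beyond 2-fold in liver and 2 in brain. The counts were 13 and 4 with plain library totals. The ferritin subunits parted: the light chain Ftl1 had 8458, 8415, 8770.3 and 9469 CPM in liver and 340.4 to 773 CPM (median 481) in brain, a difference of 4.18 ± 0.18, while the heavy chain Fth1 had 3693, 3188, 3387 and 3663 CPM in liver and 1035 to 8787 CPM (median 3208) in brain. The livers lay inside the brain range for Fth1, and its difference was 0.08 ± 0.23 with TMM and -0.86 with plain library totals. Tfrc, the receptor that takes up transferrin, was higher in brain, at -1.61 ± 0.10 (adjusted p = 0.00157). Slc40a1, the iron exporter, had 595, 249, 287 and 467 CPM in liver and 15 to 28.3 CPM (median 21.4) in brain, a difference of 4.13 ± 0.24, and the ferroxidase Heph was at -1.28 ± 0.19. Mt1, a metallothionein that binds zinc and copper, was higher in liver by 2.58 ± 0.26, and Mt3, the neural metallothionein, had no count in any liver and 143 to 382 CPM (median 231) in brain, at least 1500.1-fold higher.

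All 35 neuronal genes and all 30 ion channels, pumps and transmitter receptors were beyond 2-fold in brain, with median differences of -8.72 and -8.10. The summed level of the 35 neuronal genes was 81.9 to 96.2 CPM in the livers and 16800 to 17850 in the brain means of the mice. Camk2a, a kinase of forebrain synapses, had 0.842, 0, 0.591 and 0.483 CPM in liver and 41.9 to 4094 CPM (median 1103) in brain. Its brain libraries spanned a wide range, from medulla at the low end to motor cortex at the high end, and its difference was -10.14 ± 0.35. Some synaptic genes were measurable in liver. Syt1, the calcium sensor of vesicle release, had 25.3, 29, 19.8 and 18.4 CPM in liver and 245 to 2013 CPM (median 1037) in brain, and Vamp2, a vesicle SNARE protein, had 37.5, 41.7, 44 and 45.7 CPM in liver and 365 to 1582 CPM (median 827) in brain. Their differences, -5.44 ± 0.14 and -4.30 ± 0.10, were the smaller for it, and Vamp2 had the smallest of the list.

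Astrocyte and myelin markers included genes that were higher in liver. Of 23 astrocyte genes, 16 were beyond 2-fold in brain and 2 in liver. Sparcl1 and Aldoc, among the most abundant, differed by -7.13 ± 0.22 and -6.07 ± 0.24. Aldh1l1, a folate enzyme used as a marker of all astrocytes, had 2187, 1109.7, 1471 and 1861 CPM in liver and 39.9 to 82.4 CPM (median 61.3) in brain, a difference of 4.72 ± 0.20 (adjusted p = 6.64e-06), and Apoe was given above. Ndrg2 had 2820.4, 1479, 1631 and 2454 CPM in liver and 458 to 1234 CPM (median 719) in brain, a difference of 1.42 ± 0.23 that was not beyond 2-fold (adjusted p = 0.112). The summed level of the astrocyte list was therefore higher in liver, 52280 to 56070 CPM, than in brain, 12710 to 13190 CPM, with Apoe making up most of the liver sum.

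Of 23 myelin and oligodendrocyte genes, 19 were beyond 2-fold in brain and 2 in liver. With plain library totals these counts were 19 and 1. Mbp, the basic protein of compact myelin, had 4, 2.36, 2.36 and 3.06 CPM in liver and 226 to 16765 CPM (median 4888) in brain, a difference of -10.31 ± 0.19. It was lowest in entorhinal cortex and highest in corpus callosum. The members higher in liver were Trf (above) and Qdpr, which regenerates tetrahydrobiopterin, with 1388, 1048, 1201 and 1528 CPM in liver, 89 to 853 CPM (median 361) in brain and a difference of 1.87 ± 0.17 (adjusted p = 0.00277).

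Resident macrophages differ between the organs, as Kupffer cells in liver and microglia in brain. Of 11 Kupffer cell genes, 10 were beyond 2-fold in liver, and Clec4f and Cd5l, which mark these cells, had 156, 129, 305 and 191 and 128, 82.5, 437 and 167 CPM in the livers against at most 0.0851 and 0.165 CPM in a brain library. Liver 68 was the highest in both. Of 14 microglia genes, 8 were beyond 2-fold in brain and 1 in liver. With plain library totals these counts were 12 and 0. Cx3cr1, the fractalkine receptor, had 8.42, 5.42, 2.66 and 5.15 CPM in liver and 29.4 to 122 CPM (median 57.6) in brain, a difference of -3.55 ± 0.25. Csf1r, the growth factor receptor on which macrophages of both organs depend, had 89.9, 62.7, 136 and 105 CPM in liver and 51.6 to 178 CPM (median 90.4) in brain, with the livers inside the brain range and a difference of -0.01 ± 0.18 (-0.95 with plain library totals, and of either sign under other settings). Sall1, a transcription factor of microglia, was higher in liver, at 61.9, 60.6, 48.2 and 49.3 CPM against 3.99 to 105 CPM (median 10.9) in brain, a difference of 2.13 ± 0.12 (adjusted p = 0.00018) with overlap, the highest region mean being that of olfactory bulb. Among 14 genes of macrophages in general, 4 were beyond 2-fold in liver, among them Lyz2, a lysozyme, at 2.73 ± 0.27, and 0 in brain; with plain library totals the counts were 2 and 2.

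Of 15 brain endothelial genes, 8 were beyond 2-fold in brain and 2 in liver. With plain library totals these counts were 9 and 1. Slc2a1, the glucose transporter of the blood-brain barrier, had 15.8, 13.2, 13.6 and 10.6 CPM in liver and 81.9 to 204 CPM (median 123) in brain, a difference of -3.23 ± 0.14. Slco1a4, an organic anion carrier, and Mfsd2a, which carries omega-3 lipids, are used as barrier markers and were higher in liver, by 2.31 ± 0.13 and 2.10 ± 0.14 (adjusted p = 0.000117 and 0.000392). Ly6a stood at 61.7, 47.6, 534 and 50.4 CPM in the livers, so that liver 68 was far above the others, and its difference of 1.49 ± 0.52 was not beyond 2-fold. Bsg differed by 0.21 ± 0.18 and by -0.74 with plain library totals. Of 15 genes of liver sinusoidal endothelium, 13 were beyond 2-fold in liver, with Dnase1l3, a secreted nuclease, at 8.75 ± 0.17 and the Fc receptor Fcgr2b at 3.84 ± 0.15. Of 16 genes of stellate cells and fibroblasts, 11 were beyond 2-fold in liver and 0 in brain, or 8 and 0 with plain library totals. Dcn, a proteoglycan of the matrix, had 397, 482, 496 and 429 CPM in liver and 3.05 to 422 CPM (median 18) in brain, with overlap and a difference of 4.58 ± 0.11, and Ecm1 differed by 5.04 ± 0.14.

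Of 9 tested bile duct genes, 7 were beyond 2-fold in liver, led by the keratins Krt8 and Krt18 at 9.62 ± 0.21 and 9.17 ± 0.18, which hepatocytes also make. Spp1 was higher by 2.18 ± 0.14 on the scale that weighs regions equally, but its brain libraries ran to 875 CPM, with the highest region mean in pons, and overlapped with the livers at 207, 153, 148 and 192 CPM. Sox9, a factor of bile duct cells and of astrocytes, was beyond 2-fold in brain, at -1.87 ± 0.19 (adjusted p = 0.00483). Of 17 blood and lymphocyte genes, 16 were beyond 2-fold in liver and 0 in brain. Their summed level was 301 to 659 CPM in liver and 41.3 to 44.8 CPM in brain. The hemoglobin genes Hba-a1 and Hbb-bs had 65.9, 69.8, 150.1 and 120.1 and 71.4, 53.5, 129 and 127 CPM in the livers, differences of 5.80 ± 0.27 and 6.09 ± 0.34, and Ptprc, carried by all white blood cells, differed by 3.24 ± 0.17. The labels used here do not say whether the animals were perfused, and the part of blood left in the vessels was not tested.

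Choroid plexus is rich in Ttr, the carrier of thyroid hormone, which liver makes as well. Although that region was left out, Ttr ranged over the 54 brain libraries from 0 to 10123 CPM, with a median of 0.166, and its region means were 3731 CPM in corpus callosum, 1374 in SVZ, 456 in cerebellum, 119 in caudate putamen and at most 2.81 in the other regions. In liver it stood at 12308, 14490, 10358 and 14635 CPM, and the lowest liver was just above the highest brain library, a difference of 12.94 ± 0.27. Of 14 choroid plexus genes, 5 were beyond 2-fold in liver (Aqp1, Cldn2, Prlr, F5 and Calml4) and 4 in brain. The brain count was 9 on summed counts with edgeR and with DESeq2, and 6 with plain library totals. The summed level of the 14 genes ran from 34.5 to 203 CPM in the brain means. Prlr, the prolactin receptor, had 1245, 1472, 1590.0 and 983 CPM in liver and 0.164 to 204 CPM (median 6.09) in brain, a difference of 7.78 ± 0.21. The water channel Aqp1 and the tight junction gene Cldn2 differed by 7.29 ± 0.27 and 7.73 ± 0.38. Calml4 was at 2.32 ± 0.21 here but at 0.41 when the counts of each animal's regions were summed (edgeR), where it was not called. Leaving out the 4 regions with the highest Ttr, a choice made after these values had been seen, changed the direction of none of these 5 genes and left 2 members beyond 2-fold in brain.

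Proteins that shape RNA also differed between the organs. Of 23 RNA-binding and splicing genes, 13 were beyond 2-fold in brain and 6 in liver. Celf4 and Rbfox3, regulators of neuronal transcripts, were at -7.59 ± 0.21 and -7.41 ± 0.56, and Qk, which regulates myelin RNAs, at -1.68 ± 0.11. Ptbp1, which represses neuronal exons, had 140.2, 92.7, 104 and 121 CPM in liver and 19.4 to 54 CPM (median 26.1) in brain, and its neuronal relative Ptbp2 had 20.6, 33.2, 21 and 20.4 CPM in liver and 89.6 to 143 CPM (median 107) in brain. Their differences were 2.01 ± 0.14 and -2.20 ± 0.15, each apart in all libraries. Rest, which silences neuronal genes outside the nervous system, had 53.3, 53.3, 52.3 and 56 CPM in liver and 4.59 to 16.2 CPM (median 10.5) in brain, a difference of 2.44 ± 0.10 (adjusted p = 2.07e-05). Esrp2, an epithelial splicing factor, the editing enzyme Apobec1, known for editing the Apob transcript, and its cofactors A1cf and Rbm47 were higher in liver by 8.54 ± 0.15, 3.40 ± 0.15, 9.30 ± 0.22 and 7.49 ± 0.21.

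Genes that every cell uses showed smaller differences, and with plain library totals the medians of the nuclear respiratory chain, the proteasome and the reference genes changed sign, while those of the cytosolic ribosome and the mitochondrial genome stayed positive. Of 34 cytosolic ribosomal protein genes, 22 were beyond 2-fold in liver and 0 in brain, with a median of 1.60; with plain library totals 1 was beyond 2-fold in liver and the median was 0.66. The members did not move alike: Rps2 was higher by 2.61 ± 0.10 and Rplp0 by 1.66 ± 0.14, while Rpl3 had 797, 334, 456 and 769 CPM in liver and 485 to 1088 CPM (median 770.3) in brain, a difference of -0.47 ± 0.24. Of 13 mitochondrially encoded genes, 8 were beyond 2-fold in liver (5 without mouse 66, 68 or 69, and 0 with plain library totals), with mt-Nd2 at 2.16 ± 0.31 and mt-Co1 at 1.43 ± 0.43. Mitochondrial transcripts took 3.06 to 4.88% of the counts in liver and 1.70 to 3.60% in brain. The nuclear respiratory chain genes had a median of 0.49 with TMM and -0.45 with plain library totals. With TMM, 3 of 29 were beyond 2-fold in liver, among them Ndufa4 at 1.34 ± 0.12. Cox6a2, a subunit known from muscle, was beyond 2-fold in brain at -3.71 ± 0.36. Plain library totals gave 0 beyond 2-fold in liver and 2 in brain. Calls of any size then went from 19 in liver and 2 in brain to 3 and 17. The proteasome had a median of 0.68 with TMM and -0.26 with plain library totals. With TMM 5 members were beyond 2-fold in liver and 0 in brain, and with plain library totals 2 and 4. Among the 5 were the 3 subunits of the immunoproteasome, Psmb8, Psmb9 and Psmb10.

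Of 18 genes often used as references, 4 were beyond 2-fold in liver and 2 in brain, with a median of 0.62; with plain library totals the counts were 1 and 3 and the median was -0.32. B2m, the light chain of MHC class I, had 4595, 5178, 6636 and 4518 CPM in liver and 74.9 to 242 CPM (median 126) in brain, a difference of 5.29 ± 0.14, and Ywhaz was at -2.41 ± 0.14. Gapdh, of glycolysis, had 1921, 1482, 1774 and 2303 CPM in liver and 1429.7 to 2391 CPM (median 1867) in brain, a difference of 0.01 ± 0.20, which was -0.93 with plain library totals. Actb, the cytoskeletal actin, differed by 0.65 ± 0.19 and by -0.29 with plain library totals, and Hprt was at -1.29 ± 0.13. Malat1, Fth1, Gapdh, Atp5b and Hsp90ab1 were the 5 most abundant genes with a difference under 0.5 in size; Malat1 was at -0.26 ± 0.35, Atp5b at -0.05 ± 0.27 and Hsp90ab1 at 0.00 ± 0.18, the last -0.94 with plain library totals. The elongation factor Eef1a1 had 8739, 3802, 4704 and 8575 CPM in liver and a difference of 1.60 ± 0.32 that was not beyond 2-fold (adjusted p = 0.105), while Eef1a2, its form in neurons and muscle, had no count in liver and was at least 513-fold higher in brain.

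Liver stood apart from each brain region to a similar degree. With 1 region at a time against liver, 2711 to 3253 genes were beyond 2-fold in liver and 4039 to 4555 in brain. The lowest counts, 2711 in corpus callosum and 4039 in entorhinal cortex, came from the regions with only 3 mice, where a test has less power. The median size of the difference over all genes ran from 1.30 to 1.44. The share of genes with a difference over 2-fold in size, without a test, was lowest for cerebellum at 58.7% and highest for visual cortex at 61.6%. The liver genes with the widest range over regions included 3 whose level in 1 or more regions was above that of liver. Car8, a protein of Purkinje cells, had 336, 189, 161 and 289 CPM in liver, 2362 CPM in cerebellum and 6.01 to 34.7 CPM in the other regions, and its difference of 3.64 ± 0.22 fell to 0.24, not called, in the edgeR test on summed counts. Gpx6 and Hoxb5 were called higher in liver, at 1.87 ± 0.14 and 2.29 ± 0.29 on the scale that weighs regions equally; on summed counts (edgeR) they were at -1.27 and -1.14. Gpx6 was at 2.33 ± 0.348 CPM in liver (SD, n = 4 mice) and above it in caudate putamen at 35.7 CPM, in corpus callosum at 21.9 and in SVZ at 6.32. Hoxb5, a factor of the hindbrain and spinal cord, was at 2.13 ± 1.16 CPM in liver and above it in medulla at 41.3 CPM and in pons at 20.4. Nrn1, a growth factor for neurites, had 822, 771, 653 and 805 CPM in liver and 0.475 to 273 CPM (median 84.8) in brain, with its lowest level in caudate putamen, and differed by 3.65 ± 0.10. Its lowest liver was above every brain library.

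**Figure D5:**
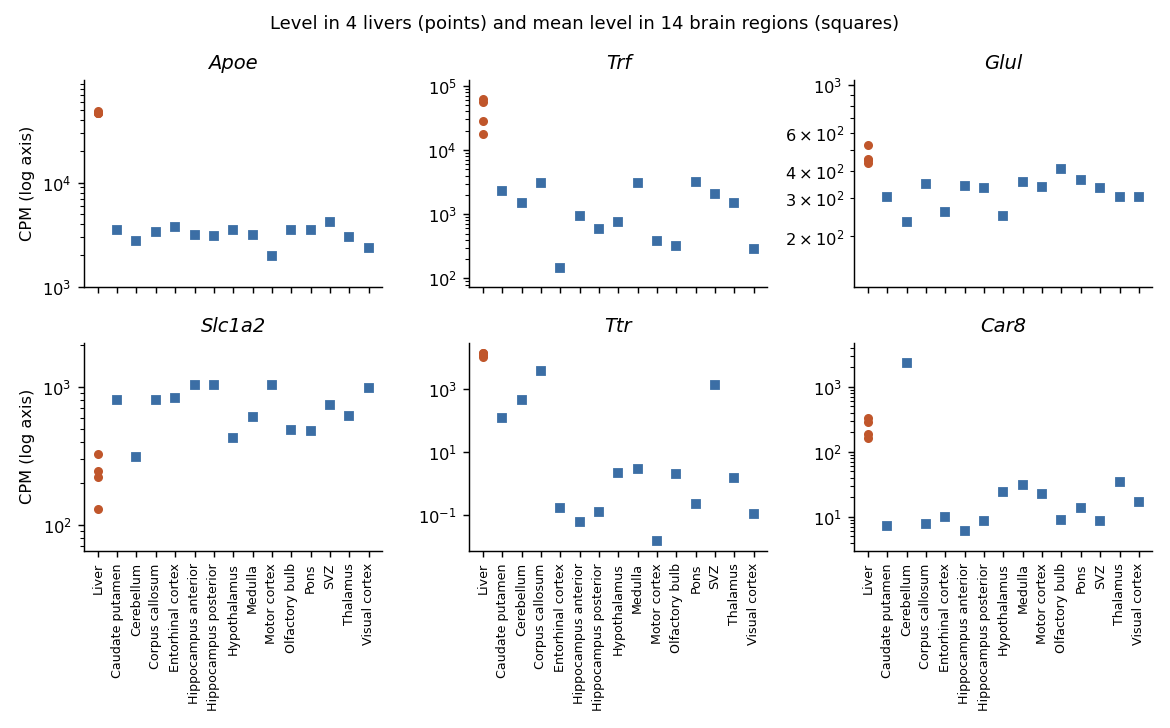
Level of 6 genes in the 4 livers (orange points) and mean level in 14 brain regions of the freely fed mice (blue squares; CPM, log axes). Apoe and Trf lie higher in liver than in every region, Glul only slightly so and with the opposite sign under plain library totals, Slc1a2 lies lower except beside cerebellum, Ttr is raised in corpus callosum and SVZ, and Car8 in cerebellum.

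The 5 restricted females gave nearly the same contrast. Beyond 2-fold, 3094 genes (19.5%) were higher in liver and 4552 (28.7%) in brain; these counts come from other animals than the freely fed ones. Of the 7767 genes beyond 2-fold in freely fed mice, 7763 had the same sign in restricted mice and 7202 were beyond 2-fold on the same side, 2931 in liver and 4271 in brain. A test of the change of the liver minus brain difference with diet called 7 of 15857 genes (0.0441%) in limma, with 1229 at an unadjusted p under 0.05. The 7 were Usp2, Cry1, Slc6a16, Alpl and Ppp1r10, whose difference was higher in restricted mice, and Bbc3 and Gas7, in which it was lower. Usp2, a deubiquitinase under clock control, had a liver mean of 48.3 CPM in freely fed and 191 CPM in restricted mice, and its difference went from -0.93 to 0.74. Cry1, a repressor of the circadian clock, went from 7.27 to 27.2 CPM in liver and its difference from -2.40 to -0.89. The hour of sampling is not given in the labels, and its part in these values was not tested.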

How the data were processed

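Counts of reads per gene were deposited by the authors in a single table of 21076 genes and 238 libraries, from unstranded Smart-Seq2 cDNA with Nextera XT tagmentation per the labels. The submitters' processing notes name Trim Galore 0.3.7, STAR 2.5.3a, DESeq2 and GRCm38 without roles; the counting program is not given in the sources used here. Without strand, genes that overlap on opposite strands cannot be told apart. Here, genes passing filterByExpr (minimum count 10, total 15) were scaled with TMM (edgeR 4.0.16, R 4.3.3) and turned into log2 CPM with a prior count of 2. Liver minus the mean of the brain regions of the same mouse was tested in limma 3.58.1, with the trend option, over 4 mice as the comparison was defined; edgeR and DESeq2 1.42.0 on summed counts were alternatives. The mouse number in the labels marks 1 animal in all its tissues and so pairs liver with brain. Deviations of liver and brain from their group means had a mean correlation of -0.00073 in the same mouse and 0.00015 between different mice. Livers were compared pairwise, and the 6 pairs differed by a chi-square of 15.6 to 83.9 per degree of freedom, so none was a repeat. The tests were checked on simulated counts in which the liver was built from the brain regions and few genes differed. That check cannot cover the scaling between organs that differ in many genes. Named genes were the 12 largest differences each way at 100 CPM or more without overlap, up to 4 of the highest members and the opposite calls of each list, all pairs, the 5 most abundant genes that differed by under 0.5, and the 5 liver genes with the widest range over regions; some genes that these rules select are not reported here. The comparison, lists, pairs and rules were chosen with earlier results of these data known. Floors of 3 counts over a group stand for 0.161 CPM in liver and 0.00563 CPM in brain. The counting intervals are exact Poisson intervals (95%) on the count of the lower tissue. Floors and intervals cover counting error only, since PCR reads without molecular identifiers are not independent molecules.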

Additional observations from a re-analysis of the deposited data

Results flagged for a closer look

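In 11 of 185 genes named here, the liver minus brain difference of 1 mouse stood further from the other 3 than Dixon's limit for 4 values allows. Chance alone flags about 5% of such groups, or 9.25 genes. The log2 differences concerned were C3 in mouse 63 (12.96 against 11.67 to 11.74), Igf1 in mouse 69 (6.99 against 7.33 to 7.38), Slc16a7 in mouse 63 (3.78 against 2.87 to 2.97) and Mt3 in mouse 66 (-9.98 against -10.19 to -10.18). Others were Chn1 in mouse 69 (-10.84 against -11.73 to -11.61), Gria2 in mouse 68 (-10.44 against -11.65 to -11.54), Sparcl1 in mouse 68 (-8.00 against -6.88 to -6.80) and Dnase1l3 in mouse 66 (9.15 against 8.58 to 8.66). The rest were Ptbp2 in mouse 66 (-1.68 against -2.40 to -2.36), Ywhaz in mouse 66 (-2.77 against -2.31 to -2.25) and Eef1a2 in mouse 63 (-8.66 against -8.58 to -8.57). Of these, Mt3, Chn1, Gria2 and Eef1a2 held 0 or 1 count in all livers together. The 4 mice had the same direction in each of the 11 genes.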

How the results depend on the processing

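With plain library totals, 3285 genes were called higher in liver, and beyond 2-fold 2035 were higher in liver and 7080 in brain (in restricted mice 1941 and 7055). The other alternatives kept these counts within 1.5 times. Without 1 mouse, the counts beyond 2-fold were 3003 to 3191 in liver and 4318 to 4435 in brain. The comparison pairs liver with brain of the same mouse; with no replicate block they were 3216 and 4658, and on counts summed over the regions with the replicate block they were 3183 and 5446 (edgeR) or 2976 and 4606 (DESeq2). None of these moved a count of calls by 1.5 times. Of 185 genes named, 165 kept direction and the call for a difference of any size with plain library totals. Under every other setting 176 to 184 did so. How many of these genes kept a call beyond 2-fold was not counted.

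Differences that changed sign with plain library totals were Glul (-0.38), Fth1 (-0.86), Bsg (-0.74), Actb (-0.29), Gapdh (-0.93), Hsp90ab1 (-0.94), Pdk2 (-0.16), Cox7a2 (-0.0091) and Slc16a1 (-0.34). On summed counts, edgeR and DESeq2 gave Gpx6 -1.27 and -1.20, Hoxb5 -1.14 and -1.04 and Fth1 -0.15 and -0.095, and edgeR gave Gapdh -0.049 and Hsp90ab1 -0.046. The sums weigh regions by their counts, not equally. Csf1r was 0.082 with DESeq2 size factors, 0.14 with a minimum count of 50, 0.022 with the regions of all 4 mice, 0.054 with the median over regions, 0.063 without 4 regions, and -0.16 to 0.23 without 1 mouse. Gapdh was -0.018 with no filter, -0.011 with choroid plexus, -0.0053 with the regions of all 4 mice, -0.037 without 4 regions and -0.089 to 0.17 without 1 mouse. Hsp90ab1 was -0.021 with no filter, -0.012 with choroid plexus, -0.029 with the median, -0.014 without 4 regions and -0.070 to 0.092 without 1 mouse. Atp5b was 0.034 with DESeq2 size factors, 0.096 with a minimum count of 50, and -0.23 to 0.21 without 1 mouse. The cause of the changes near 0 was not tested. No brain library of these mice was under 2 M counts, so leaving such libraries out was not run. Where liver held no count, differences under 0.161 CPM could not be detected.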
